A study of Mus musculus with 2 samples.

Results

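Genes of the lung capillary wall and of the endothelin and apelin signalling pairs were examined in uncultured mouse lung against cultured mouse embryonic fibroblasts (MEF). The set was fixed by symbol and comprised 9 genes: Car4, Ednrb, Ednra, Edn1, Apln, Aplnr, Plvap, Tmem100 and Ptprb. Of these, 8 were measured, by 14 probes, among 19532 genes in all. No probe in the annotation used here carried the symbol Ednra, so the second endothelin receptor was not analysed here. The lung samples, replicates 1 and 2, were total RNA from untreated lung that had not been in culture, labelled with Cy3. The labels speak both of lung and of lung cells, and do not settle whether RNA came from whole tissue or from separated cells. Each was hybridised on its own 2-colour Agilent array against RNA of MEF, fibroblasts from embryos grown in medium with serum, labelled with Cy5. The labels give no strain, age or sex, and do not tell whether the 2 lung samples came from separate or pooled animals. The p-values therefore measure the spread between these 2 samples only, which may be technical. The dyes were not swapped, so a dye effect on a gene and a difference between lung and MEF cannot be told apart.

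Gas exchange in the mouse lung takes place across a capillary bed built of 2 endothelial cell types. Aerocytes are large, thin capillary cells apposed to the alveolar epithelium and are known for Car4, Ednrb and Apln. General capillary cells act as the progenitors of the bed and are known for Aplnr, Plvap and Ptprb. Endothelin-1, encoded by Edn1, is a constricting peptide that signals through the receptors encoded by Ednra, found mainly on smooth muscle, and Ednrb, found on endothelium among other cells. Apelin, encoded by Apln, is a peptide that signals through Aplnr, a G protein-coupled receptor of endothelium, so in this bed ligand and receptor mark different capillary cells.

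Values are log2 ratios of lung over MEF, so 1 stands for a 2-fold higher and -1 for a 2-fold lower signal in lung. The sign was set by 11 measured genes of lung epithelium, among them genes of surfactant and airway secretion as well as Ager, Cyp2f2 and Slc34a2. All 22 values of these genes were positive as deposited. These were taken to be higher in lung, and none of the 8 genes was used for the sign. The base of the logarithm is not stated in the table. Were the values natural logarithms, the folds would be larger (2415-fold in place of 221-fold for Car4). Channel intensities were not used here, so a ratio that rests on a dim channel cannot be told from one that does not. Genes for odorant and pheromone receptors, whose usual site is the nose, gave a yardstick for small ratios. The central 95% of these 1043 genes, called the receptor range, spanned -1.39 to 1.22 on the array of lung replicate 1 and -1.44 to 1.24 on that of lung replicate 2.

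All 8 measured genes had positive mean ratios on both arrays and passed limma's moderated test with Benjamini-Hochberg adjustment over all genes (adjusted p from 0.0016 to 0.0043). Across all genes, 32.6% passed as higher in lung and 43.6% as lower. Of all calls 42.8% were higher, against 54.0% with each array centred on its median and 63.6% with each array centred on the receptor genes. With median centring limma's moderation gave all genes 1 shared SD (0.242), so p-values and calls under that setting do not use a gene's own spread. At least 2-fold higher on both arrays were 7 of the 8 genes, against 17.1% of all genes (15.4% were 2-fold lower), and the exception was Apln. Above the receptor range lay 6 of the 8, against 14.6% of all genes (8.91% lay below it), and the apelin genes were the others. Apln lay within the range, and Aplnr exceeded it on lung replicate 1 but not on lung replicate 2. Without moderation, which leaves 1 degree of freedom, 3 of the 8 passed (Ednrb, Plvap and Apln), and tested against a 2-fold change all but Apln and Aplnr did. The median ratio of the 8 genes was 3.94, against -0.21 over all genes.

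**Figure D1:**
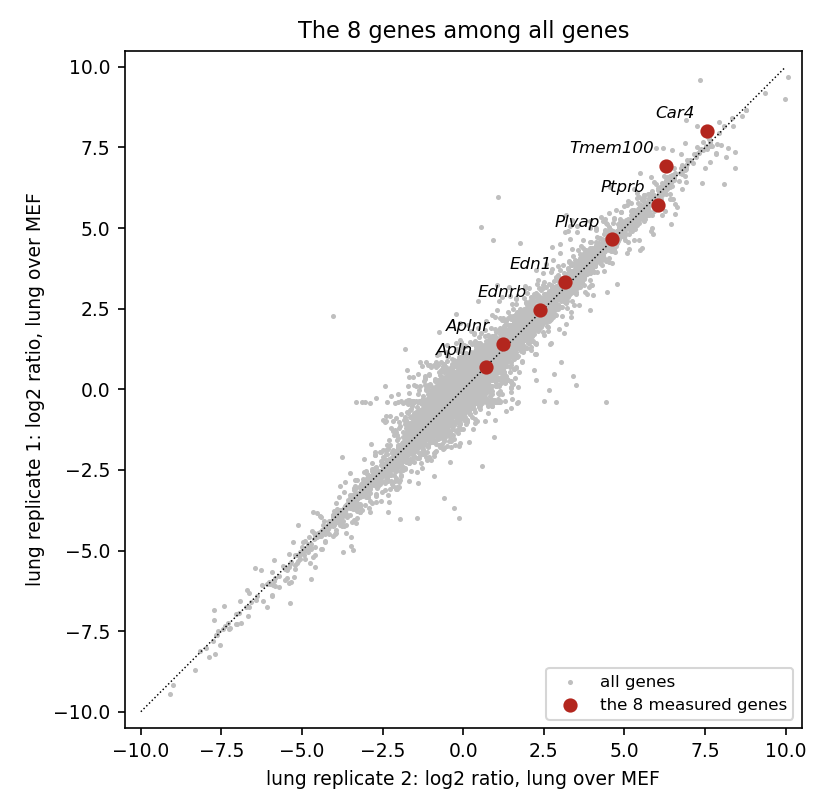
Mean log2 ratio of lung over MEF of every gene on lung replicate 2 (horizontal axis) and lung replicate 1 (vertical axis), with all 19532 genes in grey, the 8 measured genes in red and equal values on the dotted line. Car4 sits near the upper end at 8.01 on lung replicate 1, and Apln sits nearest to the bulk of the genes at 0.68.

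By the size of the ratio the order was Car4, Tmem100, Ptprb, Plvap, Edn1, Ednrb, Aplnr and Apln. The array values of neighbours in this order did not overlap. The probe means of Tmem100 and Ptprb overlapped, as did those of Ednrb and Aplnr and those of Aplnr and Apln, so those steps depend on which probe is read. The order is one of differences from MEF and says nothing of which gene was more abundant in lung. In bulk RNA, more cells of a type and more RNA per cell cannot be told apart.

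Car4 had the largest difference of the 8. It encodes carbonic anhydrase 4, which is anchored to the outer face of the membrane and converts carbon dioxide and bicarbonate into each other at the capillary surface. Its single probe read 8.01 on lung replicate 1 and 7.57 on lung replicate 2. Both values stood far above the receptor range. The mean was 7.79 ± 0.32 (SD, n = 2), or 221-fold higher in lung (limma adjusted p = 0.0018), which placed Car4 at rank 15 of all genes. The arrays differed by 0.45, and 8.64% of genes differed by as much or more.

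The other carbonic anhydrases lay on both sides of 0. Of 15 measured, 5 were higher, 6 were lower and 4 did not pass the test. These counts lay near the shares over all genes, of which 32.6% passed as higher and 43.6% as lower. The median was -0.12, which turned to 0.09 when arrays were centred on their medians and to 0.30 when centred on the receptor genes. The cytosolic enzyme Car2, abundant in red cells and many epithelia, was 30.6-fold higher (4.93 ± 0.05). Car8, a member without catalytic activity, was 55.6-fold higher (5.80 ± 0.19), and Car14, a membrane form, was 8.11-fold higher (3.02 ± 0.07). Car3 stood at 2.04 and Car15 at 1.19, with Car15 inside the receptor range on lung replicate 2. In the other direction, the secreted enzyme Car6 was at -5.15 ± 0.01, or 35.6-fold lower in lung. Car13 (-2.94), the acatalytic members Car11 (-2.77) and Car10 (-2.36), and the membrane form Car12 (-1.51) were at least 2-fold lower on both arrays. All 4 measured genes of red cells and platelets were higher in lung, with the red cell genes Hba-a1 (7.03) and Alas2 (5.67) and the platelet genes Gp9 (6.14) and Pf4 (1.14), and the part of blood in the Car2 ratio was not tested.

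The sequence ahead of the start of Car4 is shown because this gene had the largest ratio. Promoter sequences here are the 250 bases before an annotated start, from RefSeq on GRCm38.p6, 5′ to 3′ on the gene's strand, and 5 of the 9 genes had an entry. They were searched on both strands for 6 motifs. The TATA box was searched as TATAAA. The core of the hypoxia response element was searched as ACGTG, and the site of GATA factors as GATAA. The AP-1 site was searched as TGANTCA. For ETS factors, which include the endothelial regulators Erg and Fli1, the letters were CGGAAG in 1 search. In the other search for ETS factors the letters were AGGAAG. Matches are in capitals, and none overlapped another in the windows shown. The window of Car4 (chr11:84957504-84957753, plus strand) was as follows.
Car4: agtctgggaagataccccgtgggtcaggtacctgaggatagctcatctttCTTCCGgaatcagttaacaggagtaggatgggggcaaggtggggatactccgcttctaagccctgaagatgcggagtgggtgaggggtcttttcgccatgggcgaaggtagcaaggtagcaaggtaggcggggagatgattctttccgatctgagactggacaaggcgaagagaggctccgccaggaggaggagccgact
This window held CGGAAG once, on the opposite strand, beginning 200 bases before the start. The same motif was in 13.6% of the 32851 promoter windows of this length, and a match is a description of letters only.

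The endothelin ligand and the B receptor were both higher in lung. Edn1 had 1 probe, which read 3.33 on lung replicate 1 and 3.15 on lung replicate 2, a mean of 3.24 ± 0.13 (SD, n = 2). That is 9.44-fold higher in lung (limma adjusted p = 0.0018). Ednrb had 2 probes, at 2.56 and 2.37 on lung replicate 1 and at 2.44 and 2.31 on lung replicate 2. All 4 readings lay between 2.31 and 2.56, the closest agreement among the 5 genes with several probes. The Ednrb mean was 2.42 ± 0.06, or 5.34-fold higher (limma adjusted p = 0.0017). Ednrb is also a gene of glia and melanocytes. Of 4 measured markers of those cells, 1 was higher (Tyr, 0.60) and 2 were lower (Pmel at -1.59 and Sox10 at -1.04). Dct was at 0.08 and did not pass. These counts lay near the shares over all genes (32.6% higher and 43.6% lower). The part of those cells in the Ednrb ratio was not tested.

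The windows ahead of Edn1 (chr13:42301226-42301475, plus strand) and Ednrb (chr14:103843702-103843951, minus strand) are shown as those of a ligand and receptor that were both higher. The start used for Ednrb lies inside the annotated span of the gene, so its window is not the one ahead of the gene's outermost start.
Edn1: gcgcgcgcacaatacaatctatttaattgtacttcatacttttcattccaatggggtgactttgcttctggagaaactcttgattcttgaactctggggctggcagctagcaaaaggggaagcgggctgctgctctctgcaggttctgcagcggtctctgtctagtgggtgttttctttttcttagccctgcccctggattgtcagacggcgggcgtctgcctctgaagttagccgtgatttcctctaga
Ednrb: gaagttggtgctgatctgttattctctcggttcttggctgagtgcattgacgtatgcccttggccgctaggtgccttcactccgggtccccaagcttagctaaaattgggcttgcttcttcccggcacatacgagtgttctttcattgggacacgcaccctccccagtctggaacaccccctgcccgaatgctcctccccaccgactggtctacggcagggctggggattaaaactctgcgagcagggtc
None of the 6 motifs was found in either window, which says only that these letters are not in these bases. Over all windows, GATAA was in 22.6%, ACGTG in 16.6%, TATAAA in 12.4% and TGANTCA in 6.75%.

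Other genes of the endothelin pathway lay on both sides of 0. Of 13 measured, 7 were higher, 4 lower and 2 did not pass, with a median of 0.19. Over all genes, 32.6% passed as higher and 43.6% as lower. At least 2-fold apart on both arrays were 3 of the 13, with 1 higher and 2 lower. Over all genes, 17.1% were at least 2-fold higher on both arrays and 15.4% lower. Ece1, the enzyme that cleaves big endothelin to its active form, was 3.05-fold higher (1.64 and 1.57 on lung replicates 1 and 2). Its relative Ece2, known mostly from nervous tissue, was lower at -3.01 and -2.65, a mean of -2.83 ± 0.25, or 7.09-fold lower in lung. The enzymes thus lay on opposite sides, outside the receptor range on both arrays. Gna12, a G protein subunit, was lower at -1.99 ± 0.04. The ligands Edn2 (0.87) and Edn3 (0.67) passed as higher but lay within the receptor range, as did Gnaq, a main coupling subunit of both endothelin receptors, at 0.58 and the peptidase Mme at 0.40. With receptor centring 10 of the 13 genes passed as higher and 2 as lower.

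The apelin pair gave the least settled values, because probes of the same gene disagreed. The 3 probes of Apln read -0.57, 2.32 and 0.29 on lung replicate 1 and -0.43, 2.37 and 0.16 on lung replicate 2. Probe A_51_P209327 was 5.07-fold higher (2.34 ± 0.03), probe A_51_P133345 was lower (-0.50 ± 0.10), and probe A_52_P62284 was at 0.23 ± 0.09 and did not pass the test when probes were tested on their own. The gene mean of 0.69 ± 0.01 (limma adjusted p = 0.0036) as deposited therefore rests on 1 probe of 3. In a setting chosen after seeing the data, probe A_52_P62284 was at 0.44 with median centring and 0.64 with receptor centring and passed as higher under both (limma adjusted p = 0.0437, with 1 SD shared by all probes, and 0.0099). With the median of the probes in place of the mean, Apln was at 0.23 and no longer passed.

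The 2 probes of Aplnr differed more. Probe A_52_P97572 read 3.18 and 2.92 on lung replicates 1 and 2, or 8.27-fold higher in lung (3.05 ± 0.19). Probe A_51_P299055 read -0.35 and -0.46 (-0.40 ± 0.07). The gene mean of 1.32 ± 0.13 (limma adjusted p = 0.0043) lies at neither reading. With receptor centring the lower Aplnr probe was at 0.011, so its direction is not stable to the scaling. The lower Apln probe stayed below 0 at -0.085 but no longer passed (limma adjusted p = 0.35). The higher probes of Aplnr and Apln stood at 3.46 and 2.76. The annotation assigns all probes of Apln to 1 transcript accession, and likewise those of Aplnr. The probe sequences were not used here, so the part of the transcript that each probe reads is not known.

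**Figure D2:**
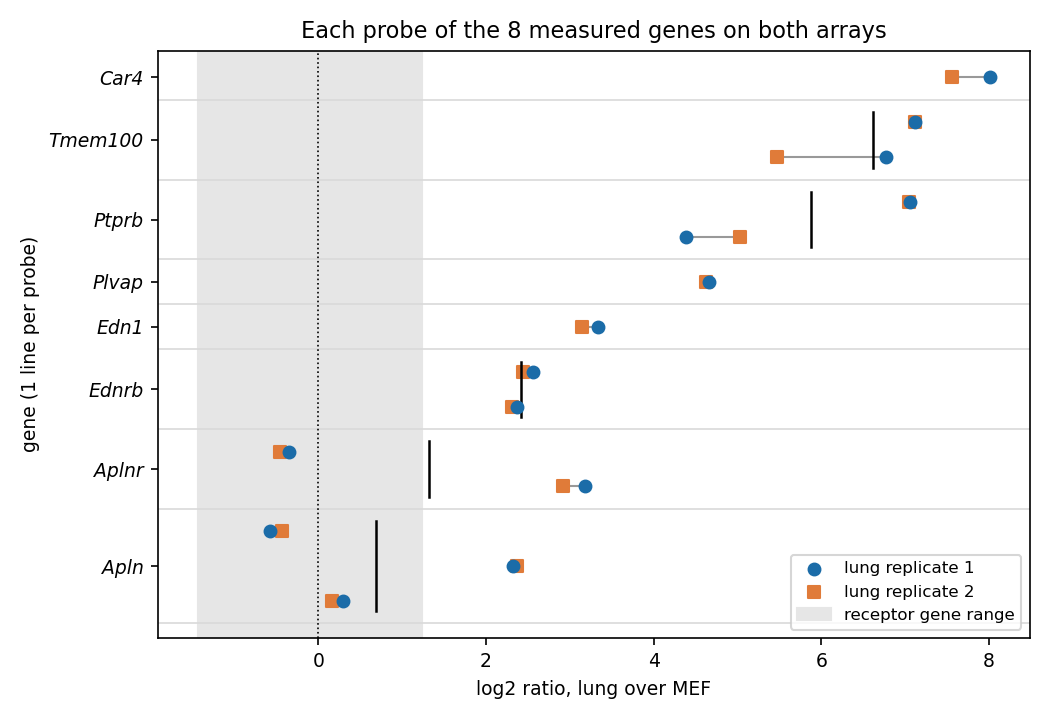
Log2 ratio of lung over MEF (horizontal axis) of each probe of the 8 measured genes, 1 line per probe, with lung replicate 1 as blue circles, lung replicate 2 as orange squares, the gene mean as a black bar where there are several probes, and the receptor range over both arrays in grey. The arrays lie close together for most probes, while probes of Aplnr, Apln and Ptprb lie apart, with 1 probe of Aplnr and 2 of Apln inside the grey range.

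Of the 5 genes with several probes, Aplnr and Apln had probe means on both sides of 0, as did 43.2% of all 8511 genes with several probes. The distance between the highest and lowest probe mean was 3.45 for Aplnr and 2.84 for Apln, against a median of 1.10 over genes with several probes. Among genes with 2 probes, 3.77% had a distance as large as that of Aplnr, and among genes with 3 probes 13.1% had one as large as that of Apln. The distance was 2.34 for Ptprb, 0.99 for Tmem100 and 0.16 for Ednrb.

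**Figure D3:**
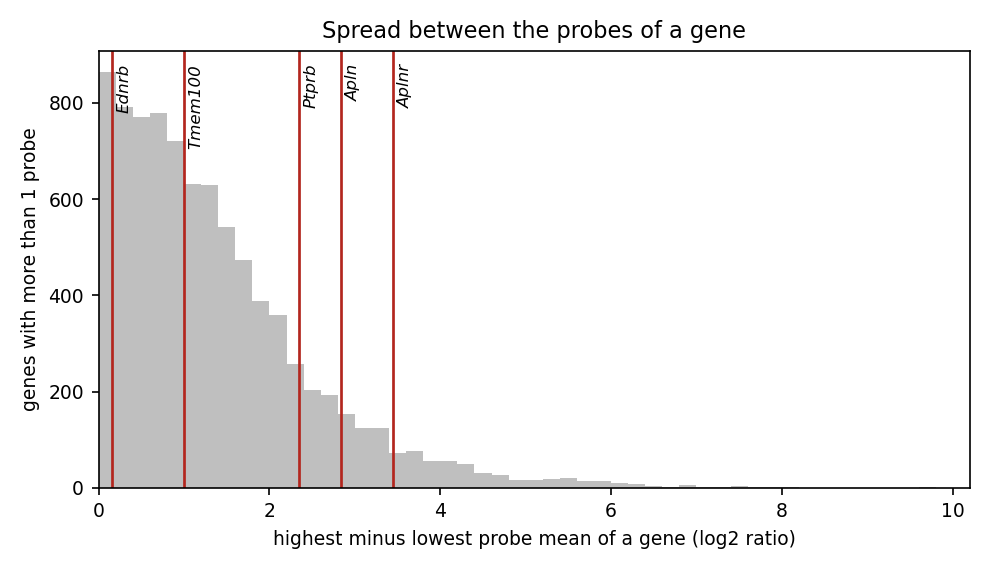
Number of genes with more than 1 probe (vertical axis) by the distance between their highest and lowest probe mean on the log2 ratio scale (horizontal axis), with red lines at the 5 measured genes that had several probes. Aplnr, at 3.45, lies in the right tail, and Ednrb, at 0.16, at the left edge.

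The promoter window of Apln (chrX:48034854-48035103, minus strand) is shown for the ligand whose probes disagreed.
Apln: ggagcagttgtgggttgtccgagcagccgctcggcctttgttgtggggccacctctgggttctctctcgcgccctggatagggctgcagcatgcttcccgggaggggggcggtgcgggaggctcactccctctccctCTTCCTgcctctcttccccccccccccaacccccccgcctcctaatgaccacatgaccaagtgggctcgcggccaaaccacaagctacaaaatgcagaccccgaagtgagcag
It held AGGAAG once, on the opposite strand, beginning 113 bases before the start. This motif was in 29.5% of windows.

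Of 9 measured genes around apelin signalling, 6 were higher, 2 lower and 1 did not pass, with a median of 0.26. The shares over all genes were 32.6% higher and 43.6% lower. At least 2-fold higher on both arrays were 3 of the 9, against 17.1% of all genes, and 0 were at least 2-fold lower, against 15.4%. The endothelial connexin gene Gja4 was 23.2-fold higher (4.65 and 4.42 on lung replicates 1 and 2). Nos3, which encodes the endothelial nitric oxide synthase, was at 3.16 ± 0.01, or 8.96-fold higher. Arrb1, an arrestin that binds activated receptors, was at 1.92 ± 0.06, with its 2 probes at 0.36 and 3.48. The gene means of the inhibitory G protein subunits, through which the apelin receptor signals, lay within the receptor range. Gnai2 (-0.58) and Gnai3 (-0.67) passed as lower and Gnai1 (0.17) as higher, with Gnai1 probe means from -1.10 to 1.49.

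Plvap, Ptprb and Tmem100 were much higher in lung on every probe. Plvap encodes the protein of the diaphragms that span endothelial caveolae and fenestrae. Its single probe read 4.66 on lung replicate 1 and 4.62 on lung replicate 2, a mean of 4.64 ± 0.03 (SD, n = 2). It was 24.9-fold higher in lung (limma adjusted p = 0.0016), with closely matched arrays.

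Ptprb encodes VE-PTP, an endothelial receptor phosphatase that restrains signalling of the angiopoietin receptor Tek and keeps junctions closed through VE-cadherin. One probe read 7.05 on both arrays. The other read 4.39 on lung replicate 1 and 5.03 on lung replicate 2. The mean was 5.88 ± 0.23, or 58.9-fold higher (limma adjusted p = 0.0018), and the probes on their own gave 133-fold and 26.2-fold. Both probes lay far above the receptor range on both arrays, so they differ in size and not in direction.

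The partners of Ptprb were higher as well in 6 of 7 cases, and 4 were at least 2-fold higher on both arrays. Of all genes, 32.6% passed as higher and 43.6% as lower, and 17.1% were at least 2-fold higher on both arrays. VE-cadherin, Cdh5, stood at 7.95 ± 0.01. The angiopoietin receptor Tek was at 4.59 ± 0.33 and its relative Tie1 at 4.01 ± 0.01. Kdr, the main receptor for VEGF in endothelium and also a gene enriched in aerocytes, was at 2.81 ± 0.07, with 1 probe at 5.87 and the other at -0.25. The ligand Angpt1 (0.85) passed as higher, and Angpt2 (-0.44) passed as lower but not when arrays were centred on their medians or on the receptor genes. The 4 other receptor phosphatases of the same structural class lay within the receptor range. Ptprj was at 0.75 and passed as higher, while Ptprh (0.80 and -0.61 on lung replicates 1 and 2), Ptpro (-0.06) and Ptprq (-0.26) did not pass.

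Tmem100 encodes a small membrane protein induced in endothelium by BMP signalling through the receptor ALK1. Its first probe read 7.11 on lung replicate 1 and 7.12 on lung replicate 2. Its second read 6.77 and 5.48, and this probe is annotated to another transcript accession than the first. The mean was 6.62 ± 0.45, or 98.3-fold higher (limma adjusted p = 0.0025). The arrays differed by 0.64, and 4.83% of genes differed by as much or more.

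Of 13 genes of the ALK1 pathway, 7 were higher, 4 lower and 2 did not pass, with a median of 1.32. Of all genes, 32.6% passed as higher and 43.6% as lower. At least 2-fold higher on both arrays were 17.1% of all genes, and 15.4% were at least 2-fold lower. The 7 higher genes were all at least 2-fold higher on both arrays. They were the receptor gene Acvrl1, which encodes ALK1 (2.84 ± 0.06), the co-receptor Eng (3.36 ± 0.02), the type II receptor Bmpr2 (1.32), the ligand Gdf2 (3.53 ± 0.16), the inhibitory SMADs Smad6 (2.24) and Smad7 (2.50), and the target Id1 (2.02 ± 0.02). Id3, a target of the same pathway, went the other way at -1.48 and -1.49 on lung replicates 1 and 2, 2.80-fold lower in lung and below the receptor range. The signal-transducing SMADs lay within the receptor range, with Smad5 (-0.49), Smad9 (-0.66) and Smad4 (-0.28) passing as lower and Smad1 at 0.01. With either centring 2 of the 13 passed as lower in place of 4.

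**Figure D4:**
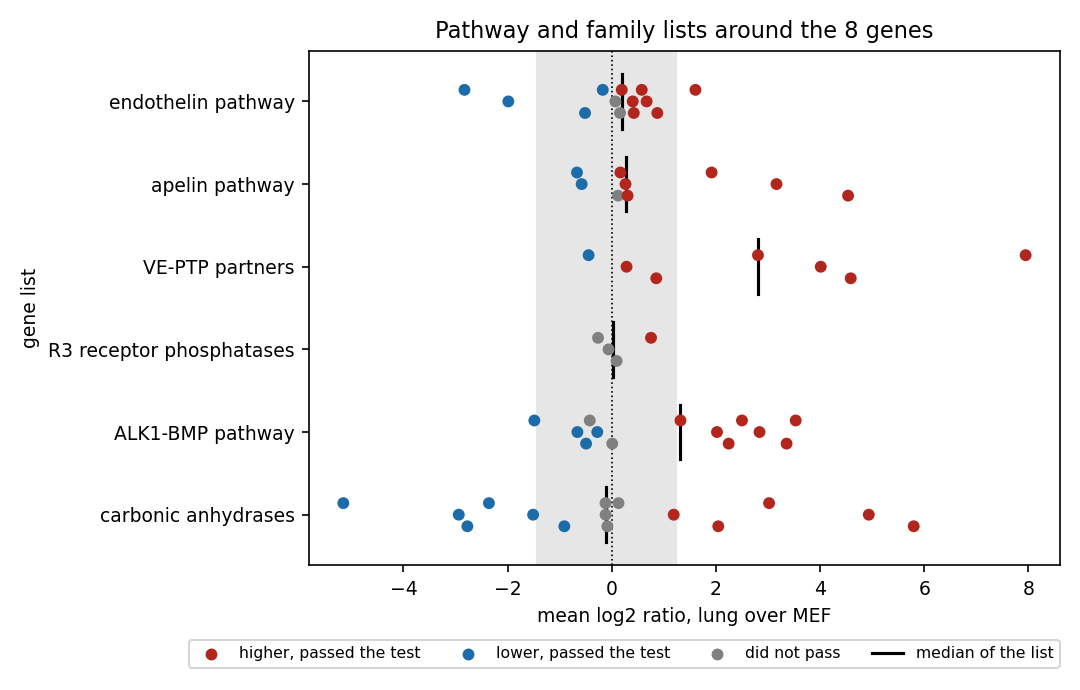
Mean log2 ratio of lung over MEF (horizontal axis) of each gene in 6 lists related to the measured genes, with red points for genes higher and blue points for genes lower by limma's test, grey points for genes that did not pass, black bars for list medians and the receptor range over both arrays in grey. ALK1 pathway and VE-PTP partner genes reach well right of the range, while 10 of the 13 other endothelin pathway genes lie inside it. Of all genes, 14.6% lay above the range on both arrays and 8.91% below it.

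Markers of the 2 capillary cell types were set beside these genes, leaving the 8 themselves out. Among all genes, 32.6% passed as higher and 43.6% as lower. At least 2-fold higher on both arrays were 17.1% of all genes, and 14.6% lay above the receptor range. All 8 measured general capillary markers were higher, with a median of 2.88, and 7 lay above the receptor range. They included the receptor tyrosine kinase Kit at 5.70 ± 0.25, Tek, and Gpihbp1, which carries lipoprotein lipase across capillary endothelium, at 4.44 ± 0.14. Of 13 measured aerocyte markers, 11 were higher and 2 lower, with a median of 0.69. At least 2-fold higher on both arrays were 6, and 5 lay above the receptor range. Among those that passed as higher, Kdr (-0.25 to 5.87), Nrp1 (-0.70 to 0.92), Pmp22 (-0.80 to 2.18) and Sirpa (-0.98 to 1.99) had probe means on both sides of 0. So did 43.2% of all genes with several probes. Cyp4b1, which airway epithelium also expresses, stood at 7.31, Emp2, also a gene of alveolar type 1 cells, at 3.84, and the ligand of Kit, Kitl, at 3.65. The cell cycle inhibitor Cdkn2b (-1.12) and Tspan5 (-0.72) were lower. Whether the marker lists differ was not tested. For either list a ratio also depends on the signal in MEF, which was not examined on its own. The ratio to MEF therefore does not measure the share of a capillary cell type.

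Markers of other vessel cells were examined too. The shares over all genes were 32.6% passing as higher and 43.6% as lower. All 12 pan-endothelial markers were higher, from 2.67 to 7.95, with Cdh5, the tight junction gene Cldn5 (6.09) and Ramp2 (5.82) highest. Lymphatic markers were higher in 4 of 6 (-0.08 to 5.55), with Lyve1 at 5.55, Ccl21a at 5.09 and Mmrn1 at 2.36. Prox1, their defining transcription factor, was at -0.08 and did not pass, with probe means from -0.95 to 1.10. Arterial markers were higher in 6 of 7, with Hey1 at 4.84, Gja4 at 4.54 and Sox17 at 4.10, and Dkk2 was lower at -4.02. Venous markers were higher in 4 of 6, with Slc6a2 at 7.70, Vwf at 4.57 and Nr2f2 at 1.05, and Ephb4 (-0.54) and Selp (-0.27) lower, but neither passed as lower with either centring. The part of these cells in the ratios of the 8 genes was not tested. Markers of smooth muscle and pericytes, the usual site of Ednra, were higher in 4 of 12 and lower in 7. The count of higher ones lay near the share over all genes. Kcnj8 (3.17), Myh11 (1.80), Abcc9 (1.45) and Notch3 (0.81) were the higher ones, and Tagln (-2.89) and Rgs5 (-2.58) the furthest in the other direction. 

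Markers of lung and of fibroblasts were set beside the labels. For comparison, 32.6% of all genes passed as higher and 43.6% as lower. The sign had been set by genes of lung epithelium, so the epithelial markers do not check the direction independently. All 8 epithelial markers were higher in lung, from 4.49 to 7.63, with Nkx2-1 at 7.63, Epcam at 7.60 and Cdh1 at 6.44 the highest. All 10 cultured fibroblast genes were lower in lung, from -7.62 to -1.51, with Col1a1 (-7.62), Twist1 (-7.28) and Lox (-6.74) the furthest. Resident lung fibroblast genes were higher in 6 of 8, with Tcf21 at 5.80, Inmt at 5.27 and Limch1 at 3.90, while Mfap5 (-0.46) and Scara5 (-0.65) were lower. Mfap5 no longer passed with either centring, and Scara5 no longer passed with receptor centring. Mesothelial markers were higher in 5 of 5, with Upk1b (4.65), Msln (4.64) and Upk3b (4.18) highest. Leukocyte markers were higher in 4 of 6, with Klrd1 at 7.25 and Ptprc at 2.73, and Itgam was lower at -0.93.

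**Figure D5:**
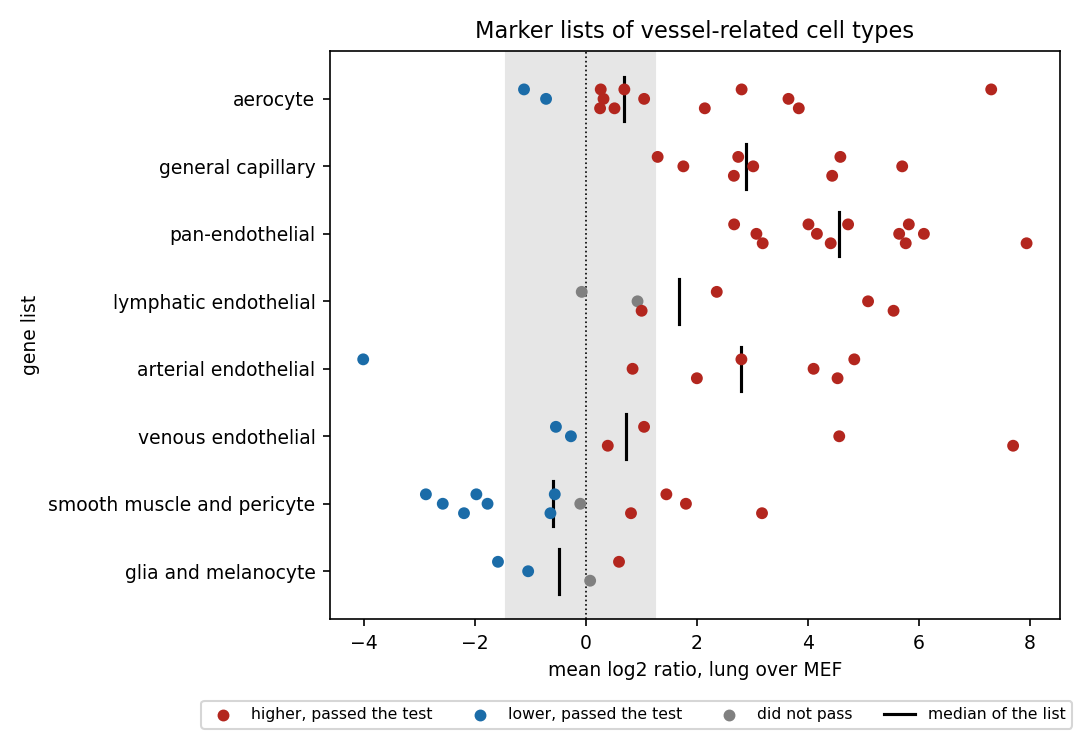
Mean log2 ratio of lung over MEF (horizontal axis) of each marker in 8 lists of vessel-related cell types and of glia and melanocytes, coloured as higher (red), lower (blue) or not passing (grey) by limma's test, with list medians as black bars and the receptor range over both arrays in grey. Every general capillary and pan-endothelial marker is red, while smooth muscle and pericyte markers fall on both sides.

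Likeness was measured as the distance between the 2 array values of a gene and those of 165 genes in the related lists. The nearest gene to Car4 was Slc6a2 (7.82 and 7.59 on lung replicates 1 and 2, a distance of 0.20), and the nearest to Plvap was Msln (0.06). Edn1 lay nearest to Nos3 (0.17), Ednrb to Smad7 (0.13), Aplnr to Glp1r (0.04), Apln to Ptprj (0.12), Ptprb to Car8 (0.12) and Tmem100 to Cdh1 (0.53). With 2 arrays such likeness means only a similar ratio.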

How the data were processed

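The authors deposited 1 table of log2 ratios, read as such because base-10 values of up to 10.1 in size would exceed a scanner's range; its base, direction and centring are not stated. Agilent Feature Extraction is the software named, per the submitters' processing notes. Its version and settings (background, dyes) are not given in the sources used. The array medians were -0.28 and -0.14 for lung replicates 1 and 2. Precision is limited by the number of arrays.

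Of 41174 probes, 32664 had 1 gene symbol in the platform annotation, 45 several and 8465 none. Probes of a gene were averaged per array, giving 19532 genes. Each gene's mean was set against 0 by limma 3.58.1 under R 4.3.3 (intercept only, eBayes, two-sided, Benjamini-Hochberg over all genes, threshold 0.05). The same steps were also run on simulated data with settings taken from this fit, and no statement here rests on that run. MEF served only as the other channel, so variation among MEF cultures is not in the test. Moderation added 1.21 degrees of freedom to the 1 of each gene.

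The genes and lists were chosen with earlier results of these data known. Named are the 8 genes, the members of the related pathway lists at least 2-fold apart on both arrays, the 3 largest in size of each marker list with any of opposite sign to most of it, the nearest genes, and further members named after their values were seen. Alternatives covered centring, the summary of probes, the test, single probes, the log base and leaving out each array.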

Additional observations from a re-analysis of the deposited data

How the results depend on the processing

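The 8 genes passed as higher in lung with either centring and with robust moderation. Reading the values as natural logarithms multiplies every ratio by the same factor, so it cannot change which genes pass and is no check of the calls. Without moderation 3 of the 8 passed (Ednrb, Plvap and Apln), since 1 degree of freedom is left. Against a 2-fold change 6 passed, all but the apelin pair, and with every probe required to pass 6 did, without the same pair. With the median of probes 7 passed. At least 2-fold higher on both arrays were 7 genes, and 8 with receptor centring; on either array alone the count was 7. Leaving out an array allows no test. With median centring the prior had no finite degrees of freedom, and all genes were tested with a shared SD of 0.242, against a median gene SD of 0.106 there and 0.057 as deposited; the cause was not tested. Centring moved the median of all genes by 0.21 (array medians) or 0.42 (receptor genes). The probes with a sign opposite to their gene mean were A_51_P133345 of Apln at -0.50 and A_51_P299055 of Aplnr at -0.40. In a setting chosen after seeing the data, these were at -0.29 and -0.20 with median centring, and the Apln probe at -0.085 with receptor centring; the cause was not tested. Over all genes, 6366 passed as higher and 8514 as lower. The counts were 2448 and 3164 without moderation, 2754 and 2242 against a 2-fold change, and 12688 and 16241 over probes, more of which were tested. With receptor centring 5225 genes passed as lower. Each ratio sets lung against MEF on the same array, so the test against 0 already uses that pairing. No other pairing was used. Signal over background was not used here, so which ratios are limited by a dim channel is not known.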

Other observations

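Wide gaps between probes also occurred among other endothelial genes, named here after their values were seen. The probe means of Sox17, a transcription factor gene of arterial endothelium, ran from 0.97 to 9.01 over 4 probes. Those of Tek were 1.73 and 7.45, those of Vwf ran from 0.83 to 7.15 over 3 probes, and those of Mmrn1 were -0.26 and 4.98. Gja5, an arterial connexin gene, had 1 probe at 4.30 and 1 at -0.30. By contrast, the 2 probes of Erg, an endothelial transcription factor gene, read 2.63 and 2.72, and those of Id1 read 2.00 and 2.04.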
